A study of Mus musculus with 24 samples.

Results

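The genes described here carry out or control the synthesis of cholesterol and fatty acids. They are 33 listed genes, named by their function and without a threshold on a measured value, although earlier results of these data were known when the list was drawn up, out of 49172 genes in the deposited tables. Their roles were the mevalonate pathway (7 genes), the steps from squalene to lanosterol (3), the steps from lanosterol to cholesterol (8), the control of the SREBP transcription factors (5), sterol transport, efflux and oxysterol formation (5), and fatty acid synthesis and desaturation (5). RNA was sequenced from Ocy454, a mouse osteocytic cell line derived from bone, exposed for 2 h or 8 h to vehicle, to LPA (lysophosphatidic acid), to the active vitamin D hormone 1,25-dihydroxyvitamin D (1,25D), or to the pair of them. The study asked how the agents act together on production of FGF23, a phosphate-regulating hormone, and which signalling pathways take part. The design gave 8 groups of 3 libraries, 24 in all, without any genetic change named in the labels, and vehicle of the same time was the control. The labels used here name no dose. All groups came from 1 cell line, and no label states that the 3 libraries of a group were separate cultures, which means that a p-value here speaks of the spread among these samples alone.

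Cells build cholesterol from acetyl-CoA through mevalonate, squalene and lanosterol, and they build fatty acids from the same acetyl-CoA. The transcription factors SREBP1 and SREBP2, made from Srebf1 and Srebf2, switch on most of these enzymes. When membrane cholesterol is low, the escort protein SCAP carries the SREBPs from the endoplasmic reticulum to the Golgi, where they are cleaved and freed. INSIG1 and INSIG2 hold SCAP back when cholesterol or oxysterols are plentiful, and oxysterols also activate the liver X receptors, which raise efflux genes and Mylip. LPA is a signalling lipid that acts through G protein-coupled receptors, and 1,25D acts through the vitamin D receptor. Insig2 has been described elsewhere as a gene that the vitamin D receptor can induce in fat cells.

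Libraries held between 32.80 and 33.67 M estimated counts assigned to genes, so depth was nearly even. The share of counts on mitochondrially encoded genes ran from 9.01 to 16.92%, lowest in vehicle replicate 1 at 2 h and highest in vehicle replicate 2 at 8 h. Of the osteocyte markers, Pdpn lay between 50.5 and 105 CPM (a count as a share of the library's scaled total) and Cd44 between 114 and 421. Dmp1 stayed between 1.90 and 4.80 CPM, while Mepe, Fgf23, Dkk1 and Sost stayed below 0.226 CPM in every library, so defining markers of mature osteocytes were close to absent. The 6 adipocyte markers summed to between 0.0289 and 0.774 CPM per library, and Adipoq was at 0 in 21 libraries. The cartilage marker Sox9 differed between groups: the 4 chondrocyte markers summed to 18.2 to 24.8 CPM in the libraries labelled 1,25D and 12.9 to 18.4 with both agents at 2 h, and 5.65 to 6.96 in vehicle. Sox9 made up most of these sums: Col2a1 reached at most 0.2265 CPM in any library, Acan 0.1799 and Comp 1.048. Of the macrophage and blood markers, Cd68 lay between 10.59 and 17.25 CPM and Lyz2 between 3.725 and 8.335. Ptprc, Adgre1 and Csf1r reached at most 1.644 CPM. Of the endothelial markers, Cdh5 lay between 1.444 and 2.515 CPM, and Pecam1, Kdr and Tek reached at most 0.5801. The 8 osteocyte markers, mainly Cd44 and Pdpn, summed to 462 to 512 CPM labelled 1,25D, 455 to 524 with both agents and 281 to 299.6 in vehicle at 2 h. At 8 h the osteocyte sum was 168 to 183 CPM labelled LPA, 326 to 341 labelled 1,25D, 263 to 291 with both agents and 231 to 274 in vehicle. The 6 osteoblast markers, mainly Col1a1, summed at 8 h to 4525 to 6023 CPM labelled LPA and 4362 to 4647 labelled 1,25D. The sum was 2484 to 5089 with both agents and 1691 to 4115 in vehicle, so the single agents lay above vehicle without overlap. At 2 h that sum overlapped vehicle in each treated group. Over all libraries Col1a1 lay between 1650 and 5945 CPM and Runx2 between 22.79 and 77.01, while Sp7, Bglap, Alpl and Ibsp reached at most 2.684. The sum therefore describes Col1a1 and not the markers as a set. At 8 h, 5 of the 6 markers had a mean of at least 1 CPM in vehicle, and 3 in each treated group. The part of these markers in the results was not tested. In bulk RNA, fewer cells of a type and less RNA per cell cannot be told apart.

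The treatment labels of the single agents need a reservation. Groups follow the sample titles, whereas the letters for LPA and 1,25D in the names of the deposited tables are exchanged for the single treatments. Cyp24a1, which the vitamin D receptor induces, had 25, 48 and 29 counts in the libraries labelled LPA at 8 h and 35, 28 and 24 with both agents. It had 0, 1 and 0 counts in the libraries labelled 1,25D and 1, 0 and 0 in vehicle. Vdr lay between 246.5 and 259.8 CPM labelled LPA, 70.6 and 74.3 labelled 1,25D, and 112 and 134 in vehicle at 8 h. Both genes go against the titles and with the exchanged letters, so the groups are called "labelled LPA" and "labelled 1,25D" throughout. The agent to which each single-agent direction belongs is subject to this doubt. Both agents against vehicle, the interaction and the time course of vehicle do not depend on which single treatment is which.

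Before the counts of changed genes, the levels show how much of each transcript these cells held. On the TPM scale, which corrects for transcript length and so allows genes to be compared, Scd1 had the highest median over the 24 libraries (316 TPM), ahead of Scd2 (214), Fdps (167) and Ebp (149). Srebf2 (99.2 TPM), Fasn (83.0), Cyp51 (79.4), Msmo1 (78.4) and Acly (69.3) followed. The place of Scd1 above Scd2 rests on sums over transcripts, and ENSMUST00000235741 held 57.7% of the Scd1 TPM. In vehicle at 2 h the coding transcript ENSMUST00000041331 of Scd1 had a mean of 76.08 TPM. The coding transcript ENSMUST00000026221 of Scd2 had 138.8 TPM there. The lowest sterol enzyme was Tm7sf2 at a median of 5.76 TPM, whose reduction another nuclear membrane protein can also perform. Ch25h (2.55 TPM), Abca1 (0.793) and Abcg1 (0.0649) were lowest of all. Ch25h had the widest range, from 0.444 to 13.8 TPM or 31.1-fold between libraries, and among the other tested genes the widest were Srebf1 (5.33-fold) and Fasn (5.28-fold). Abcg1 had at most 13 counts in a library (0 to 0.377 CPM), did not pass the filter on low counts and was not tested, so 32 of the 33 genes entered the tests.

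**Figure D1:**
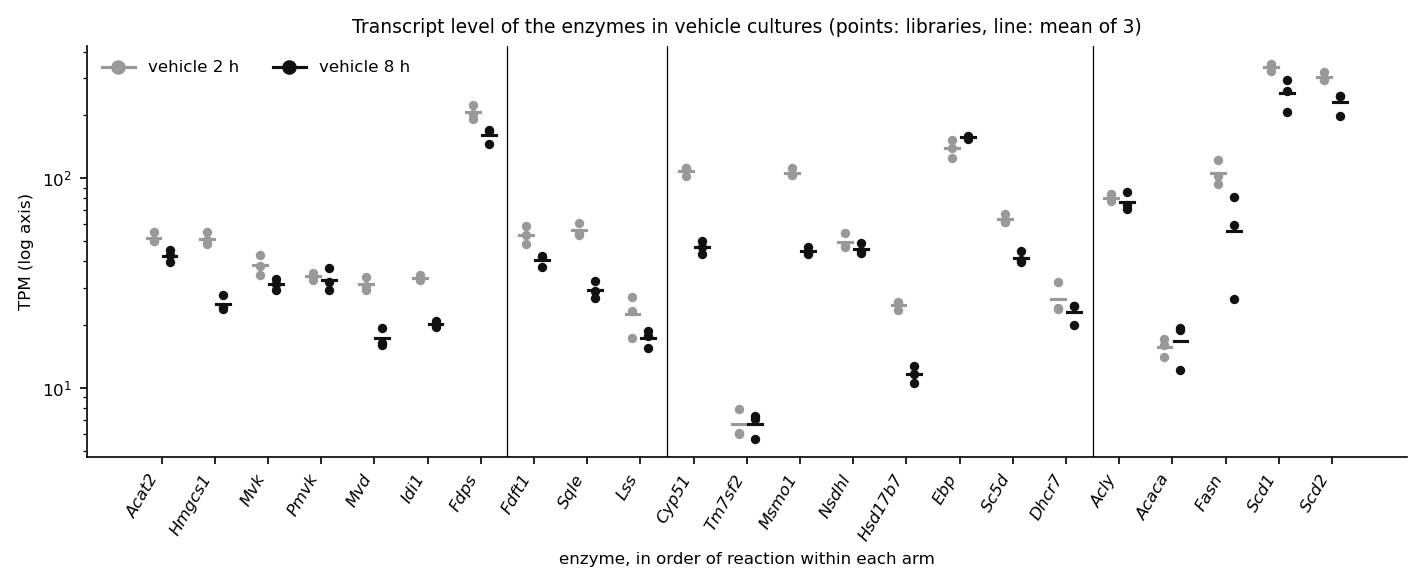
TPM (log axis) of the enzymes of sterol and fatty acid synthesis in the vehicle libraries, with 1 point per library, a line at the mean of 3, grey for 2 h and black for 8 h. Most sterol enzymes sit lower at 8 h than at 2 h, Tm7sf2 lies lowest, and Scd1 and Scd2 lie highest.

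The upstream sequences of members that moved in many comparisons are shown because sterol genes are classically read through a sterol regulatory element together with CCAAT boxes bound by NF-Y. RefSeq promoters on GRCm38.p6, an older build than the mm39 build of the deposited tables, were matched by symbol for 26 of the 33 genes, and the 250 bases before each start site were searched on both strands. The 5 promoters below run 5′ to 3′ in the direction of transcription, from base −250 to base −1, for the 5 genes holding a match that passed the threshold in most comparisons. Capitals mark CCAAT, its reverse complement ATTGG, and CACGTG, a palindromic E-box.
Cyp51, chr5:4104698-4104947, minus strand: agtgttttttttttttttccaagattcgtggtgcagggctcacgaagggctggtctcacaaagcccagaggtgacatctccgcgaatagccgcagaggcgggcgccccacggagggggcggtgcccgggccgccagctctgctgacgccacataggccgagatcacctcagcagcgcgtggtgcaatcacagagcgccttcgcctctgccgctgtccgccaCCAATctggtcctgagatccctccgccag
Hsd17b7, chr1:169969206-169969455, minus strand: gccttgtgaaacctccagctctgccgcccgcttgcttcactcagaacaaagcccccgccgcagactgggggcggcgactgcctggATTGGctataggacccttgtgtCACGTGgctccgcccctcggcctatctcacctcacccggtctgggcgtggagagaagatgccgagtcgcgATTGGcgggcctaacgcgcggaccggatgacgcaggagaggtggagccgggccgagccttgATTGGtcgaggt
Insig2, chr1:121332590-121332839, minus strand: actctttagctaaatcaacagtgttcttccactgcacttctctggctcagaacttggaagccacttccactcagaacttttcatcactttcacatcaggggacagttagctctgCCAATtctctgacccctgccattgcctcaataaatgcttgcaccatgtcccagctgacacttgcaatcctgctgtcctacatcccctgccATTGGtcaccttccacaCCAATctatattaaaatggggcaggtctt
Mvd, chr8:122443423-122443672, minus strand: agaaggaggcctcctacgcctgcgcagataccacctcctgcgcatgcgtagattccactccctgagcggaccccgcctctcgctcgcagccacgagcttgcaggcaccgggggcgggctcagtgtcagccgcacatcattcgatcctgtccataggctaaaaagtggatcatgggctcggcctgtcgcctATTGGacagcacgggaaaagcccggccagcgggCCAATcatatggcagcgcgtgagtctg
Mylip, chr13:45389492-45389741, plus strand: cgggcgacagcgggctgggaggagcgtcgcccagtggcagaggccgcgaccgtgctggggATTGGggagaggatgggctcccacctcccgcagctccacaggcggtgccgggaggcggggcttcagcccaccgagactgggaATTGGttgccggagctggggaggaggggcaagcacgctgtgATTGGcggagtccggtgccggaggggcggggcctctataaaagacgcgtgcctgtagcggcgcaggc
Hmgcs1, chr13:119690194-119690243, plus strand: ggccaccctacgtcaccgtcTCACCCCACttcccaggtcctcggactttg
The Hmgcs1 stretch covers bases −157 to −108 and was chosen after its match was seen, and its capitals mark TCACCCCAC at −137 to −129. Of the 26 genes, 20 (76.9%) held CCAAT, against 37.5% of the 27025 genes in the promoter table and 33.8% of its 32851 windows. CACGTG stood upstream of 6 genes (Hsd17b7, Sc5d, Dhcr7, Scap, Insig1 and Abca1), 23.1% of 26 against 6.86% of all genes and 6.02% of windows. TCACNCCAC was found for 1 gene, Hmgcs1, 3.85% of 26 against 1.22% of all genes and 1.05% of windows. Its exact form TCACCCCAC was found for the same gene, against 0.555% of all genes and 0.496% of windows. A direct repeat of AGGTCA with any 4 bases between the copies and at most 1 mismatch, the form liver X receptors bind, was found for 0 of the 26 genes. It stood in 0.266% of all genes and 0.24% of windows, too rare for 26 genes to show a difference. Within these genes no CCAAT match shared a base with a match to CACGTG or TCACNCCAC. Counted from the start site, Cyp51 held CCAAT at −29 to −25, and Mvd held it at −27 to −23 and, on the other strand, at −60 to −56. Insig2 and Mylip held 3 matches each, and Hsd17b7 held 3 beside CACGTG at −143 to −138. A match describes letters in the window and is not a measured binding site.

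Every test below is edgeR's quasi-likelihood test on 1 fit of the 24 libraries, with Benjamini-Hochberg adjustment over all 16424 genes tested and a threshold of 0.05 on the adjusted p. A gene is called higher or lower only past that threshold, fold changes are given as log2 values ± their standard error (SE), and levels per library are TMM-scaled CPM.

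At 2 h the libraries labelled LPA differed from vehicle at 2 of the 32 tested genes, Hsd17b7 and Insig2, both higher. The background was low here too: 0.785% of all genes tested were called, 0.597% higher and 0.189% lower. The libraries labelled 1,25D differed from vehicle at 10 genes at 2 h, 5 higher and 5 lower (31.2%), with 13.9% of all genes called, 7.06% higher and 6.85% lower. With both agents 15 genes differed at 2 h, 8 higher and 7 lower (46.9%), with 19.9% of all genes called, 9.88% higher and 10% lower. These 3 comparisons share their vehicle libraries.

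By 8 h the libraries labelled LPA differed from vehicle at 17 of the 32 genes, 3 higher and 14 lower (53.1%), with 12.0% of all genes called, 6.62% higher and 5.38% lower. The median log2 fold change of the 32 genes was -0.28, against 0.003 for all genes tested. The libraries labelled 1,25D differed at 8 genes, 3 higher and 5 lower (25%), with 16.2% of all genes called, 7.89% higher and 8.32% lower. Both agents together gave 13 calls, 3 higher and 10 lower (40.6%), with 16.8% of all genes called, 9.54% higher and 7.25% lower, and a median of -0.13 against 0.025.

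Some of these counts rest on single libraries. Of the 17 genes called in the libraries labelled LPA at 8 h, 10 stayed past the threshold in each of the 6 fits that left out 1 of the compared libraries, and the count fell to 10 without vehicle replicate 2 and to 11 without LPA replicate 2. Of the 8 called in the libraries labelled 1,25D at 8 h only Cyp51 and Scd2 stayed in each such fit, and the count was 4 without vehicle replicate 1 or 2 and 5 without 1,25D replicate 1 or 2. With both agents 14 of 15 stayed at 2 h and 9 of 13 at 8 h, and 7 of 10 stayed for the libraries labelled 1,25D at 2 h. Fitted on the 6 compared libraries alone, the counts at 8 h were 6 labelled LPA, 4 labelled 1,25D and 5 with both agents. For the libraries labelled LPA at 2 h the count was 1 without vehicle replicate 1 or 2 or LPA replicate 2 or 3.

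**Figure D2:**
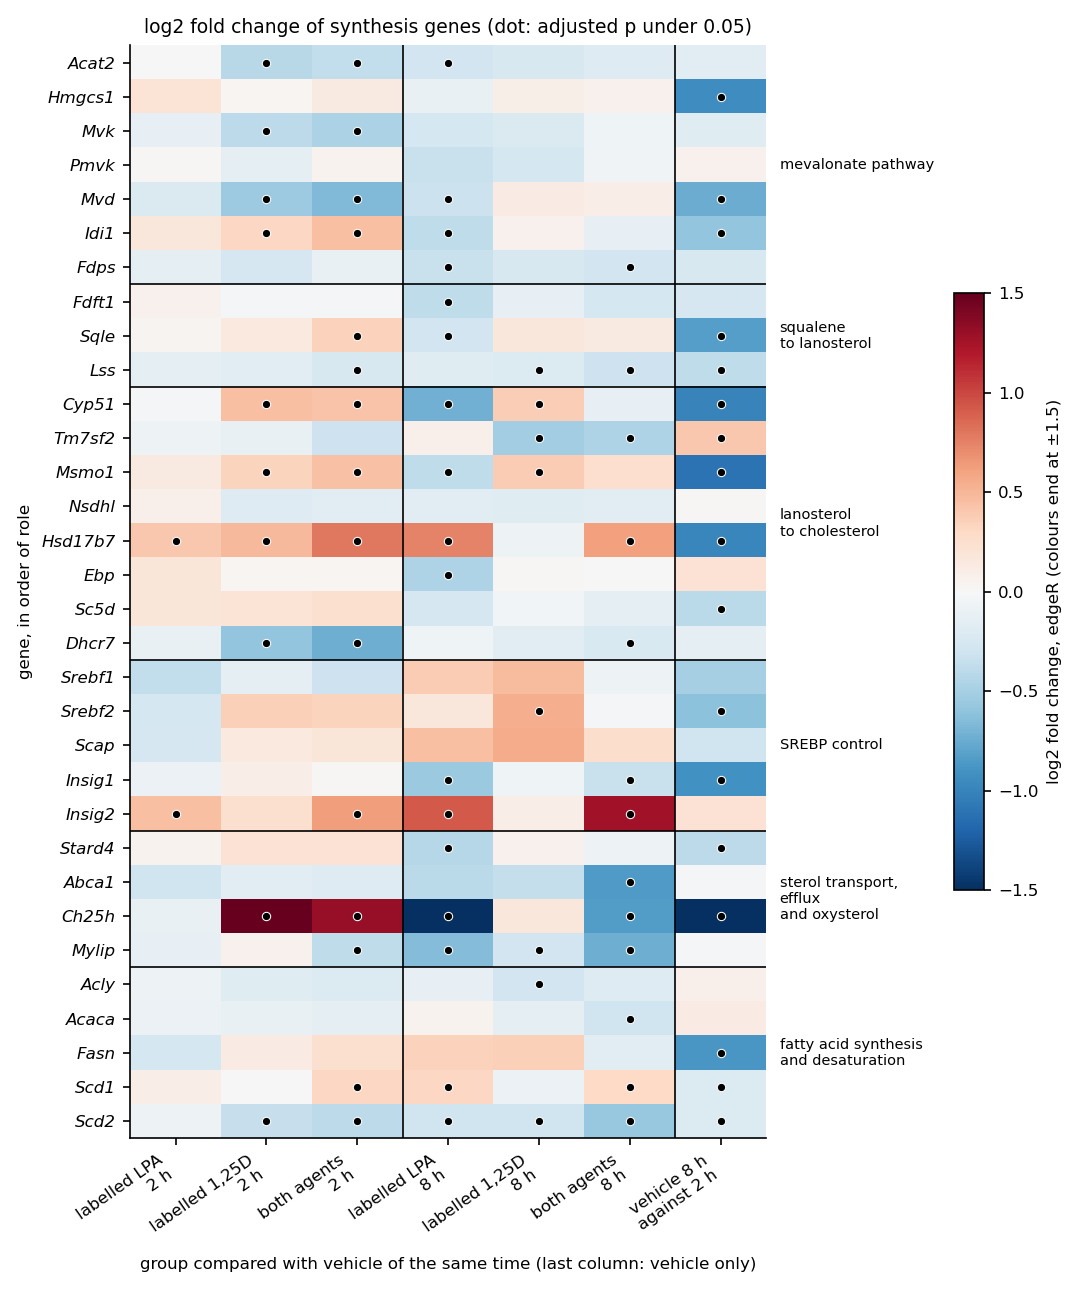
log2 fold change (edgeR) of the 32 tested genes, in order of role, for the 6 comparisons with vehicle of the same time and, in the last column, vehicle at 8 h against 2 h. A dot marks an adjusted p under 0.05, and colours end at ±1.5. The last column is mostly lower, the libraries labelled LPA at 8 h are lower at 14 genes, and Insig2 and Hsd17b7 stand out as higher.

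The untreated cultures themselves changed between the times. In vehicle 17 of the 32 genes differed at 8 h against 2 h, 1 higher and 16 lower (53.1%), while 14.6% of all genes tested were called, 5.88% higher and 8.69% lower. The median log2 fold change was -0.28 for the 32 genes and -0.016 for all genes. Msmo1 (log2 fold change -1.11 ± 0.09, adjusted p = 5.96e-08), Cyp51 (-0.997 ± 0.07, adjusted p = 6.73e-09), Hsd17b7 (-0.97 ± 0.07, adjusted p = 2.95e-09), Hmgcs1 (-0.94 ± 0.08, adjusted p = 3.89e-08) and Insig1 (-0.91 ± 0.07, adjusted p = 1.07e-08) fell, and Ch25h fell by 1.53 (SE 0.17, adjusted p = 2.94e-06). Hmgcs1 makes the precursor of mevalonate, and its CPM was 122, 139.7 and 127 in vehicle at 2 h and 64.6, 73.8 and 64.8 at 8 h, without overlap. Hmgcs1 passed the threshold in no comparison with vehicle at the same time, where its log2 fold changes lay between -0.11 and 0.21. Sqle (-0.82 ± 0.07, adjusted p = 5.96e-08), Mvd (-0.74 ± 0.08, adjusted p = 3.07e-06), Idi1 (-0.59 ± 0.10, adjusted p = 0.000523), Sc5d (-0.41 ± 0.08, adjusted p = 0.00219), Stard4 (-0.40 ± 0.09, adjusted p = 0.00441) and Lss (-0.38 ± 0.07, adjusted p = 0.000393) were lower as well. On the 6 vehicle libraries alone 8 of the 17 calls were kept, each of them lower, and those for Idi1, Lss, Sc5d, Stard4, Srebf2, Fasn, Scd1, Scd2 and Tm7sf2 were lost (adjusted p between 0.0517 and 0.218). From length-scaled TPM the Lss value was -0.25 (adjusted p = 0.484). Tm7sf2 was the 1 gene called higher (0.41 ± 0.13, adjusted p = 0.0388), in 1 of 6 fits without a library, and from length-scaled TPM its value was 0.14 (adjusted p = 0.632). Scd1 and Scd2 (-0.20 each) also stayed past the threshold in 1 of 6 such fits, and Srebf2 (-0.62) and Fasn (-0.88) lost the call without vehicle 2 h replicate 1 or vehicle 8 h replicate 2, with adjusted p up to 0.161 and 0.062. A drift of the cultures over 6 more hours and a difference between the times of harvest cannot be told apart.

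The first arm leads from acetyl-CoA to farnesyl diphosphate. Of its 7 genes, 1 rose and 3 fell in the libraries labelled 1,25D at 2 h, where 13.9% of all genes were called. The same counts held for both agents at 2 h, with 19.9% of all genes called. The libraries labelled LPA at 8 h were lower at 4, where 5.38% of all genes were lower. Mvd removes carbon dioxide from diphosphomevalonate to give the first isoprenoid unit. Its CPM at 2 h was 43.1, 39.7 and 41.8 in vehicle, 26.7, 26.1 and 32.4 labelled 1,25D and 24.97, 27.9 and 25.7 with both agents. Both treated groups lay wholly below vehicle, with log2 fold changes of -0.55 ± 0.08, adjusted p = 9.05e-05 and -0.67 ± 0.08, adjusted p = 5.25e-06. By 8 h the vehicle libraries had themselves come down to 22.8, 26.8 and 24.9, and those labelled LPA stood at 19.9, 19.3 and 20.2. That difference passed the threshold (log2 fold change -0.33 ± 0.09, adjusted p = 0.0141) but not without vehicle replicate 2 or LPA replicate 2 (adjusted p up to 0.0946).

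Mvk, the kinase that phosphorylates mevalonate, had 48.05, 46.3 and 42.6 CPM in vehicle at 2 h, 30.1, 33.7 and 40.1 labelled 1,25D and 32.8, 30.9 and 34.9 with both agents. All 6 treated libraries were below the 3 vehicle libraries. Its log2 fold changes were -0.40 ± 0.10, adjusted p = 0.00758 labelled 1,25D, a call lost without 1,25D replicate 1 (adjusted p = 0.063), and -0.48 ± 0.10, adjusted p = 0.00121 with both. Acat2 joins acetyl-CoA units at the entrance of the pathway and was likewise lower at 2 h, with 91.9, 87.7 and 87.8 CPM in vehicle, 66.8, 61.5 and 71.8 labelled 1,25D and 67.4, 71.96 and 68.3 with both agents. Again neither treated group overlapped vehicle, and the log2 fold changes were -0.42 ± 0.09, adjusted p = 0.00222 and -0.36 ± 0.09, adjusted p = 0.00473.

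Idi1, which isomerises the isoprenoid unit, went the other way at 2 h. Its CPM was 73.8, 75.2 and 79.5 in vehicle, 94.4, 99.4 and 90.5 labelled 1,25D and 92.8, 108 and 110.5 with both agents. Treated libraries lay above vehicle without overlap, at 0.31 ± 0.10, adjusted p = 0.0461 and 0.45 ± 0.10, adjusted p = 0.00335, and the first of these calls was lost in each of the 6 fits without a library (adjusted p up to 0.17). At 8 h its CPM labelled LPA was 43.2, 35.8 and 38.2, under the 50.5, 57.4 and 44.1 of vehicle (log2 fold change -0.38 ± 0.11, adjusted p = 0.0218), a call kept in 3 of 6 fits and lost without vehicle replicate 2 or LPA replicate 2 or 3 (adjusted p up to 0.145). Fdps, which builds farnesyl diphosphate, stood at 8 h at 163, 161 and 146 in vehicle, 136, 116 and 121 labelled LPA and 125, 145 and 116 with both agents. Neither treated group overlapped vehicle (-0.33 ± 0.09, adjusted p = 0.0158 and -0.28 ± 0.09, adjusted p = 0.0303), and these calls were kept in 3 of 6 and 2 of 6 fits without a library, with adjusted p up to 0.0779 and 0.139. Acat2 labelled LPA at 8 h (-0.29 ± 0.09, adjusted p = 0.0376) was kept in 2 of 6 (up to 0.205). Pmvk, the second kinase, passed the threshold in 0 of the 18 comparisons, with log2 fold changes against vehicle between -0.34 and 0.05.

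Squalene is made by Fdft1, oxidised by Sqle and closed into lanosterol by Lss. Sqle is a control point of the pathway. At 2 h it stood at 128, 122 and 121 CPM in vehicle and 141, 168 and 162 with both agents, higher without overlap (log2 fold change 0.35 ± 0.07, adjusted p = 0.000901). At 8 h the libraries labelled LPA lay below vehicle, at 59.3, 55.4 and 57.7 against 68.2, 72.4 and 69.1 (log2 fold change -0.28 ± 0.07, adjusted p = 0.0101), a call that was lost without vehicle replicate 2 (adjusted p = 0.0504). Sqle did not pass the threshold labelled LPA at 2 h (log2 fold change 0.04) or with both agents at 8 h (0.13). Lss was lower with both agents at either time. It had 47.4, 49.1 and 44.7 CPM in vehicle at 8 h and 36.4, 40.4 and 36.9 with both, without overlap, at -0.31 ± 0.07, adjusted p = 0.00158. At 2 h its CPM was 60.3, 62.96 and 60.2 in vehicle and 49.2, 52.2 and 53.9 with both, and the log2 fold change was -0.24 ± 0.07, adjusted p = 0.0107, lost without replicate 1 of both agents (adjusted p = 0.062). The call labelled 1,25D at 8 h (-0.20 ± 0.07, adjusted p = 0.0389) held in 1 of 6 fits without a library, with adjusted p up to 0.22. From length-scaled TPM the Lss values with both agents did not pass the threshold at either time, with -0.18 and adjusted p = 0.647 for 2 h, and -0.49 and adjusted p = 0.129 for 8 h. Fdft1 was lower in the libraries labelled LPA at 8 h (-0.38 ± 0.10, adjusted p = 0.0194), except without vehicle replicate 2 or LPA replicate 2 (adjusted p up to 0.094).

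From lanosterol to cholesterol the 8 enzymes did not move as a block: labelled 1,25D and with both agents 3 were higher and 1 lower at 2 h, and labelled LPA 1 was higher and 3 lower at 8 h. The shares of all genes called in these comparisons were 13.9%, 19.9% and 12.0%. Cyp51 gave the clearest opposition between the single agents. It removes the methyl group at carbon 14 of lanosterol. At 2 h its CPM was 274, 295 and 291 in vehicle, 272, 292 and 289.6 labelled LPA, 384, 394 and 395 labelled 1,25D and 351, 401 and 404 with both agents. At 8 h the values were 145, 154 and 132, 92.1, 81.03 and 89.5, 185, 185 and 187 and 127, 146 and 124 in the same order. The libraries labelled 1,25D lay above vehicle at both times, those labelled LPA overlapped vehicle at 2 h and lay below it at 8 h, and both agents together lay above vehicle at 2 h and overlapped it at 8 h. The log2 fold changes labelled 1,25D were 0.45 ± 0.07, adjusted p = 0.000165 at 2 h and 0.37 ± 0.07, adjusted p = 0.00129 at 8 h, and labelled LPA -0.72 ± 0.07, adjusted p = 3.85e-07 at 8 h. With both agents Cyp51 was higher at 2 h (0.42 ± 0.07, adjusted p = 0.000189) and not past the threshold at 8 h (-0.12 ± 0.07, adjusted p = 0.314). The direct test of the libraries labelled LPA against those labelled 1,25D at 8 h gave a 2.12-fold lower level (log2 fold change -1.09 ± 0.07, adjusted p = 3.61e-10).

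Msmo1 acts 2 steps after Cyp51 and begins removal of the methyl groups at carbon 4. Its 2 h CPM was 124, 123 and 126 in vehicle, 149, 160.4 and 161 labelled 1,25D and 157, 170.1 and 179 with both agents. At 8 h it was 53.9, 66.8 and 52.6 in vehicle, 49.2, 41.5 and 42.6 labelled LPA, 73.9, 78.4 and 73.6 labelled 1,25D and 66.99, 75.2 and 63.5 with both. Libraries labelled 1,25D exceeded vehicle at both times and those labelled LPA were below it at 8 h, as for Cyp51. The values were 0.34 ± 0.09, adjusted p = 0.0173 and 0.38 ± 0.09, adjusted p = 0.00778 labelled 1,25D, 0.44 ± 0.09, adjusted p = 0.00148 with both agents at 2 h, and -0.38 ± 0.09, adjusted p = 0.0104 labelled LPA at 8 h. Of these, both agents at 2 h held in every fit without a library. The call labelled 1,25D at 8 h was lost without vehicle replicate 1 (adjusted p = 0.0584), while at 2 h it held in 2 of 6 fits (up to 0.0745) and labelled LPA at 8 h in 3 of 6 (up to 0.0927).

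Hsd17b7, a 3-ketosteroid reductase that works with Msmo1 and Nsdhl, was called in 5 of the 6 comparisons with vehicle and always as higher. CPM at 2 h was 48.5, 51.5 and 52.5 in vehicle, 63.5, 66.2 and 71.8 labelled LPA, 73.6, 70.9 and 68.4 labelled 1,25D and 81.1, 90.4 and 92.2 with both agents. At 8 h it was 27.1, 26.3 and 24.3, 42.7, 42.5 and 44.5, 25.2, 24.1 and 23.99 and 38.8, 42.1 and 38.3 in that order. Every treated group was above vehicle without overlap, except the libraries labelled 1,25D at 8 h, which overlapped it (-0.08 ± 0.07, adjusted p = 0.452). The 2 h values were 0.40 ± 0.07, adjusted p = 0.00193 labelled LPA, 0.48 ± 0.07, adjusted p = 2.28e-05 labelled 1,25D and 0.79 ± 0.07, adjusted p = 1.21e-08 with both agents, and the 8 h values 0.74 ± 0.07, adjusted p = 6.14e-08 labelled LPA and 0.62 ± 0.07, adjusted p = 6.06e-07 with both. At 8 h the protein-coding transcript ENSMUST00000027989 had a mean of 5.61 TPM in vehicle, 10.8 labelled LPA and 8.57 with both agents. A non-coding transcript of the gene, ENSMUST00000123230, had a mean of 2.97 TPM in vehicle and 0.119 labelled LPA at 8 h. With counts rebuilt from length-scaled TPM, which weighs the transcripts of a gene differently, the gene's log2 fold change labelled LPA at 8 h was 0.24 (adjusted p = 0.0776), under the threshold.

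Dhcr7 performs the last reduction to cholesterol, and its substrate is also the skin's precursor of vitamin D. At 2 h its CPM was 55.5, 46.5 and 47.7 in vehicle, 47.5, 43.98 and 46.9 labelled LPA, 30.5, 33.2 and 35.4 labelled 1,25D and 30.9, 29.1 and 30 with both agents. Libraries labelled 1,25D and those given both agents lay wholly below vehicle and below the libraries labelled LPA. The level was 1.51-fold lower labelled 1,25D (log2 fold change -0.59 ± 0.08, adjusted p = 1.1e-05) and 1.66-fold lower with both agents (log2 fold change -0.73 ± 0.08, adjusted p = 3.89e-07). The differences at 8 h were small, -0.17 ± 0.08, adjusted p = 0.134 labelled 1,25D and -0.22 ± 0.08, adjusted p = 0.0487 with both, and the second passed the threshold but was lost in each of the 6 fits without a library (adjusted p up to 0.142) and with the replicate number as a block (adjusted p = 0.0665). Tm7sf2, a sterol reductase, was lower at 8 h, with CPM of 7.30, 7.36 and 7.07 in vehicle, 4.62, 5.08 and 5.39 labelled 1,25D and 6.04, 4.77 and 4.89 with both. The groups did not overlap (-0.53 ± 0.13, adjusted p = 0.00864 and -0.47 ± 0.13, adjusted p = 0.015). The first was lost without 1,25D replicate 1 (adjusted p = 0.0553) and the second without replicate 2 or 3 of both agents (up to 0.0678), and from length-scaled TPM the values were -0.30 and -0.29 (adjusted p = 0.214 and 0.25), under the threshold. Ebp, a sterol isomerase, was lower labelled LPA at 8 h, 97.2, 87.1 and 95.2 against 124, 144 and 118 CPM in vehicle (log2 fold change -0.46 ± 0.09, adjusted p = 0.00185). Nsdhl passed the threshold in 0 of the 18 comparisons and Sc5d in 0 of the 6 with vehicle, where Sc5d ran from -0.25 labelled LPA at 8 h to 0.24 with both agents at 2 h.

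**Figure D3:**
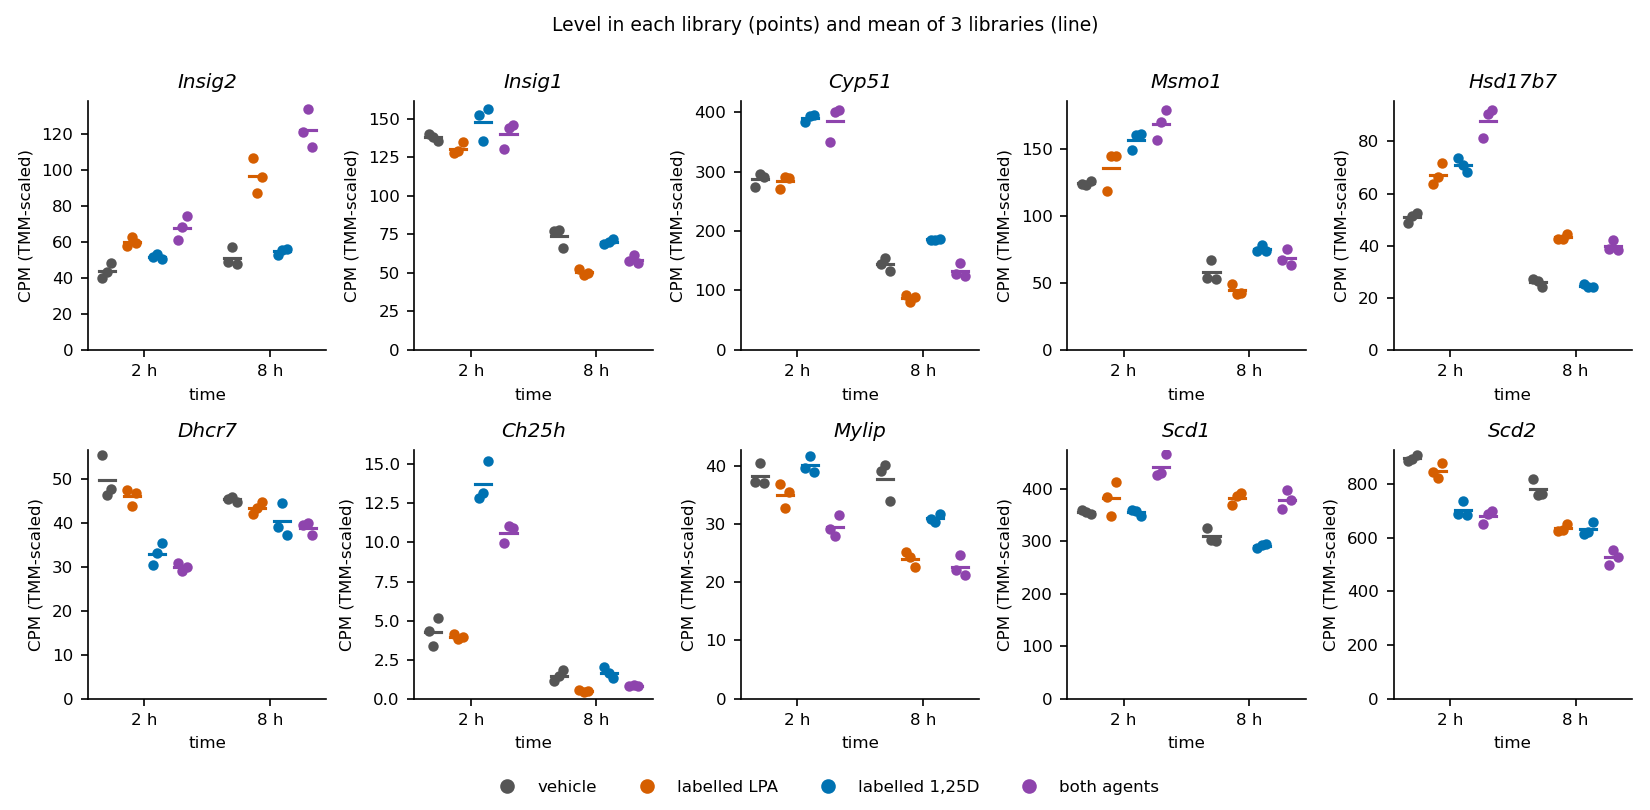
CPM (TMM-scaled, axes from 0) of 10 genes at 2 h and 8 h, with 1 point per library coloured by group and a line at the mean of 3. Insig2 is highest with both agents at 8 h, Cyp51 separates the libraries labelled LPA from those labelled 1,25D at 8 h, and Ch25h is high at 2 h in the groups labelled 1,25D and both.

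Control of the SREBPs showed its clearest change in Insig2, which keeps SCAP in the endoplasmic reticulum. At 8 h Insig2 had 48.8, 56.9 and 47.8 CPM in vehicle, 107, 87.03 and 96.1 labelled LPA, 52.4, 55.7 and 55.9 labelled 1,25D and 121, 134 and 113 with both agents. Libraries labelled LPA and both lay far above vehicle, and those labelled 1,25D overlapped it. The level was 1.89-fold higher labelled LPA (log2 fold change 0.92 ± 0.09, adjusted p = 2.75e-07) and 2.39-fold higher with both agents (log2 fold change 1.26 ± 0.09, adjusted p = 1.43e-09), and labelled 1,25D the value was 0.10 ± 0.09, adjusted p = 0.527. At 2 h its CPM was 40.01, 43.4 and 48.1 in vehicle, 57.6, 62.7 and 59.3 labelled LPA, 51.3, 52.95 and 50.6 labelled 1,25D and 60.9, 68.2 and 74.6 with both. Each treated group stood above vehicle without overlap, but labelled 1,25D the difference did not pass the threshold (0.23 ± 0.09, adjusted p = 0.0996). The call with both agents (0.63 ± 0.09, adjusted p = 3.04e-05) held in every fit without a library, while labelled LPA (0.45 ± 0.09, adjusted p = 0.0157) held in 2 of 6 (adjusted p up to 0.19) and was lost without vehicle replicate 1 or 2 or LPA replicate 2 or 3. Both main coding transcripts of Insig2 were higher at 8 h: ENSMUST00000003818 had a mean of 20.96 TPM in vehicle, 41.7 labelled LPA and 46.6 with both agents, and ENSMUST00000161818 had 5.72, 27.8 and 26.6.

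Insig1, the other INSIG, is itself an SREBP target, and it went the opposite way. CPM at 8 h was 76.7, 77.5 and 66.3 in vehicle, 52.6, 48.3 and 49.5 labelled LPA, 68.6, 69.6 and 71.9 labelled 1,25D and 57.9, 61.5 and 56.1 with both agents. Libraries labelled LPA and both were below vehicle without overlap (-0.55 ± 0.07, adjusted p = 6.29e-06 and -0.33 ± 0.07, adjusted p = 0.00148), and those labelled 1,25D overlapped it (-0.07 ± 0.07, adjusted p = 0.543). At 2 h Insig1 had 140.3, 138 and 136 CPM in vehicle, 127, 129 and 135 labelled LPA, 152, 135 and 156 labelled 1,25D and 130.0, 144 and 146 with both agents. Of the comparisons at 2 h, 0 passed the threshold, with log2 fold changes between -0.08 and 0.10.

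Srebf1, Srebf2 and Scap, which encode the transcription factors and their escort, varied widely within groups, and 0, 1 and 0 of their comparisons with vehicle passed the threshold. Srebf1 at 8 h had 62.2, 30.8 and 78.1 CPM in vehicle, 62.3, 90.4 and 70.9 labelled LPA, 78.3, 76.2 and 82.7 labelled 1,25D and 58.9, 37.5 and 65.6 with both agents. Srebf2 at 8 h had 147, 86.3 and 159, 125, 174 and 140.5, 183, 191 and 196 and 135, 96.6 and 154. For Srebf1 the groups overlapped in every comparison with vehicle and 0 of the 18 comparisons passed the threshold, with log2 fold changes against vehicle from -0.37 to 0.47 and an SE of 0.24. Srebf2 was higher labelled 1,25D at 8 h (0.54 ± 0.18, adjusted p = 0.0498), in 1 of 6 fits without a library (adjusted p up to 0.279). The coefficient of variation within a group had a median over the 8 groups of 15.3% for Srebf1, 13.7% for Srebf2, 20% for Scap and 16.0% for Fasn, against 3.77% for Scd2 and 5.28% for Cyp51, and it reached 42.3% for Srebf1.

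The spread of these 4 genes can be set beside the mitochondrial share of the libraries. Vehicle replicate 2 at 8 h, with the highest share (16.92%), had the lowest CPM of the 24 libraries for Srebf1 (30.8), Srebf2 (86.3), Scap (21.5) and Fasn (74.7). Vehicle replicate 1 at 2 h, with the lowest share (9.01%), had the highest Srebf1 (104). Replicate 2 of both agents at 8 h was second lowest for Fasn (86.5) and Srebf1 (37.5) at a share of 12.55%, where the other libraries of its group had 12.19 and 12.74%, so the share does not order every library. Whether the share has a part in the spread of these genes was not tested.

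**Figure D4:**
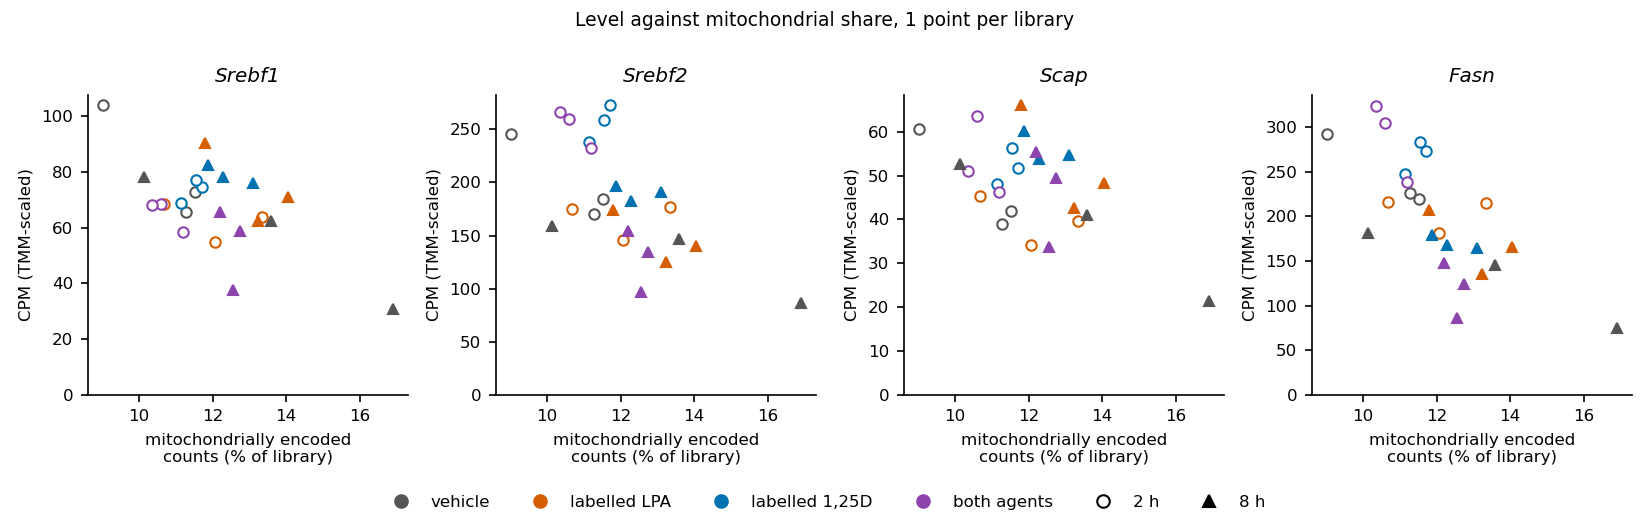
CPM of Srebf1, Srebf2, Scap and Fasn against the mitochondrially encoded share of counts (percent), with 1 point per library, open circles for 2 h, triangles for 8 h and colours for groups. The library at 16.92% is lowest in each panel, and libraries of 1 group spread widely.

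Sterol transport, efflux and oxysterol formation held the largest fold changes of the whole set. Ch25h makes 25-hydroxycholesterol, an oxysterol that binds INSIG and restrains SREBP cleavage. Its CPM at 2 h was 4.32, 3.36 and 5.16 in vehicle, 4.16, 3.79 and 3.96 labelled LPA, 12.8, 13.2 and 15.2 labelled 1,25D and 9.95, 11.03 and 10.9 with both agents. By 8 h it had come down to 1.15, 1.46 and 1.82, 0.528, 0.425 and 0.467, 2.00, 1.64 and 1.34 and 0.824, 0.870 and 0.779 in that order. At 2 h the libraries labelled 1,25D and both stood above vehicle and those labelled LPA overlapped it, and at 8 h those labelled LPA and both stood below vehicle. The level was 3.21-fold higher labelled 1,25D at 2 h (log2 fold change 1.68 ± 0.16, adjusted p = 9.62e-08) and 2.48-fold higher with both agents (log2 fold change 1.31 ± 0.16, adjusted p = 2.57e-06). At 8 h it was 3.11-fold lower labelled LPA (log2 fold change -1.64 ± 0.22, adjusted p = 1.28e-05) and 1.79-fold lower with both (log2 fold change -0.84 ± 0.20, adjusted p = 0.00465). Ch25h is the 1 gene that both agents raised at 2 h and lowered at 8 h.

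Mylip encodes an E3 ubiquitin ligase that sends lipoprotein receptors to degradation and is a target of liver X receptors. At 8 h its CPM was 39.05, 40.2 and 33.95 in vehicle, 25.1, 24.4 and 22.6 labelled LPA, 30.9, 30.3 and 31.8 labelled 1,25D and 22.04, 24.6 and 21.3 with both agents. All 3 treated groups were below vehicle without overlap, at -0.65 ± 0.08, adjusted p = 3.55e-06 labelled LPA, -0.28 ± 0.08, adjusted p = 0.0159 labelled 1,25D and -0.74 ± 0.08, adjusted p = 4.4e-07 with both. The call labelled 1,25D was lost without vehicle replicate 1 or 2 or 1,25D replicate 2 (adjusted p up to 0.111). At 2 h both agents stood at 29.1, 27.98 and 31.5 against 37.3, 40.5 and 37.03 in vehicle (log2 fold change -0.38 ± 0.08, adjusted p = 0.00122).

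Abca1 pumps cholesterol out of the cell and is another target of liver X receptors. It had 7.33, 7.39 and 9.56 CPM in vehicle at 8 h and 4.18, 4.22 and 5.04 with both agents, 1.81-fold lower without overlap (log2 fold change -0.85 ± 0.15, adjusted p = 0.000267). Labelled LPA (-0.41 ± 0.15, adjusted p = 0.0746) and labelled 1,25D (-0.35 ± 0.15, adjusted p = 0.105) it did not pass the threshold at 8 h, although neither group overlapped vehicle. Stard4, a carrier of sterols through the cytosol, was lower labelled LPA at 8 h, 34.4, 32.98 and 34.9 against 43.4, 50.9 and 43.1 in vehicle (log2 fold change -0.43 ± 0.09, adjusted p = 0.00288). Of the 4 tested genes of this role, 3 were lower labelled LPA at 8 h and 3 with both agents. Among all genes tested, 5.38% and 7.25% were lower in these comparisons.

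In fatty acid synthesis the desaturases Scd1 and Scd2, which place the double bond of monounsaturated fatty acids, moved apart. Scd2 at 8 h had 817, 760.0 and 760.3 CPM in vehicle, 623, 629 and 650.2 labelled LPA, 614, 622 and 659 labelled 1,25D and 498, 554 and 527 with both agents. All 3 treated groups lay below vehicle, and both agents lay below each single agent. Its log2 fold changes were -0.30 ± 0.06, adjusted p = 0.00105 labelled LPA, -0.30 ± 0.06, adjusted p = 0.000856 labelled 1,25D and -0.57 ± 0.06, adjusted p = 2.04e-07 with both at 8 h, and -0.35 ± 0.06, adjusted p = 0.000168 labelled 1,25D and -0.40 ± 0.06, adjusted p = 2.56e-05 with both at 2 h. At 2 h the Scd2 CPM was 886, 892 and 907 in vehicle, 843, 823 and 877 labelled LPA, 688, 734 and 684 labelled 1,25D and 650.5, 688 and 699 with both agents. The libraries labelled 1,25D and both lay below the other groups there. Scd1 at 8 h had 326, 303 and 301 CPM in vehicle, 369.5, 387 and 393 labelled LPA, 288, 293 and 295 labelled 1,25D and 361, 399 and 379.9 with both. Libraries labelled LPA and both exceeded vehicle (0.31 ± 0.06, adjusted p = 0.00151 and 0.29 ± 0.06, adjusted p = 0.00142), as did both agents at 2 h (0.31 ± 0.06, adjusted p = 0.000796). With counts rebuilt from length-scaled TPM these 3 Scd1 values were 0.26, 0.20 and 0.29 with adjusted p = 0.152, 0.312 and 0.0948, under the threshold. Since the Scd genes are related in sequence, the division of reads between them is uncertain.

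Acly, which supplies cytosolic acetyl-CoA, was lower labelled 1,25D at 8 h (-0.29 ± 0.07, adjusted p = 0.0099), except without vehicle replicate 2 (adjusted p = 0.0891). Acaca, which makes malonyl-CoA, was lower with both agents at 8 h (-0.30 ± 0.08, adjusted p = 0.00899), except without vehicle replicate 3 (adjusted p = 0.0616). Fasn, the fatty acid synthase, passed the threshold in 0 of the 6 comparisons with vehicle, with values from -0.27 to 0.35 and an SE of 0.23.

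Each agent was compared in 2 settings that share no library: alone against vehicle, and on top of the other agent. On top of the agent labelled 1,25D, both agents against labelled 1,25D gave 4 calls at 2 h, with 0.767% of all genes called, and 9 at 8 h, with 9.18%. The 4 calls fell to 2 without replicate 2 of either group and to 1 without replicate 3 of either. At 8 h, 8 genes passed the threshold in both settings of the agent labelled LPA and all 8 had the same direction: Hsd17b7, Insig2 and Scd1 higher, and Cyp51, Insig1, Ch25h, Mylip and Scd2 lower. They are 47.1% of the 17 genes called alone and 88.9% of the 9 called on top. At 2 h, Hsd17b7 and Insig2 did so, 100% of 2 and 50% of 4. For neither agent was the overlap between settings counted over all genes tested, so it is not shown to be particular to these genes. Insig2 on top of the agent labelled 1,25D at 8 h was 2.24-fold higher (log2 fold change 1.16 ± 0.09, adjusted p = 6.53e-09), and Cyp51 was lower (-0.49 ± 0.07, adjusted p = 7.13e-05).

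For the agent labelled 1,25D, both agents against labelled LPA gave 13 calls at 2 h, with 18.7% of all genes called, and 13 at 8 h, with 22.9%. The 8 h count was 8 without replicate 2 of either group. At 2 h, 9 genes passed in both settings with the same direction: Cyp51, Msmo1, Hsd17b7 and Ch25h higher, and Acat2, Mvk, Mvd, Dhcr7 and Scd2 lower. They are 90% of the 10 called alone and 69.2% of the 13 called on top. At 8 h these were 4, Cyp51 and Msmo1 higher and Tm7sf2 and Scd2 lower, 50% of 8 and 30.8% of 13. Across the 32 genes Pearson's r between the settings was 0.914 at 2 h and 0.249 at 8 h for the agent labelled 1,25D, and 0.595 and 0.610 for the agent labelled LPA. These coefficients are across genes, which are not independent replicates, and describe these libraries only. Srebf1, Srebf2, Scap and Fasn, which spread widely within groups, had opposite signs in the 2 settings of the agent labelled 1,25D at 8 h. Their log2 fold changes were 0.47 and -0.46, 0.54 and -0.19, 0.55 and -0.18, and 0.35 and -0.50 in that order. Other genes also differed in sign there, among them Mvk and Pmvk. The part of the spread within groups in this coefficient was not tested.

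**Figure D5:**
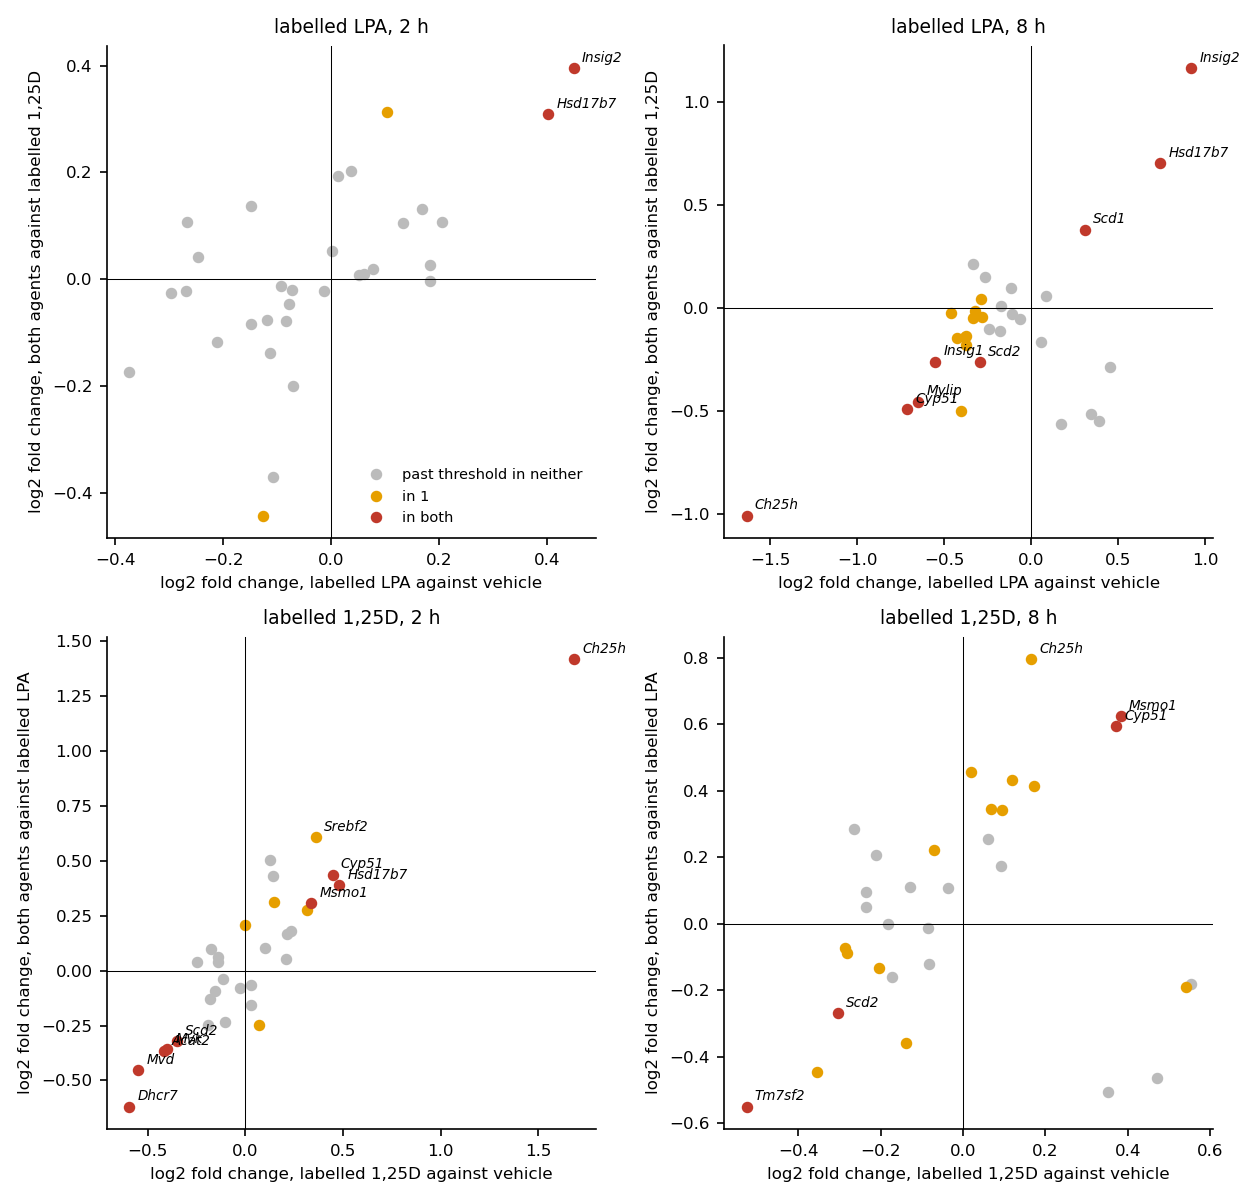
log2 fold change of each tested gene for an agent alone against vehicle (x axis) and on top of the other agent (y axis), with 1 panel per labelled agent and time. Red points pass the threshold on both axes, orange on 1 and grey on neither. The panel for the label 1,25D at 2 h (r = 0.914) lies closest to a line.

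The single agents were also compared directly. Labelled LPA against labelled 1,25D differed at 7 genes at 2 h (4 higher, 3 lower, with 18.1% of all genes called) and at 14 at 8 h (4 higher, 10 lower, with 17.6%). The 14 calls at 8 h all held in each fit without a library. Higher were Tm7sf2 (0.61 ± 0.13, adjusted p = 0.00192), Hsd17b7 (0.82 ± 0.07, adjusted p = 6.67e-09), Insig2 (0.82 ± 0.09, adjusted p = 7.1e-07) and Scd1 (0.39 ± 0.06, adjusted p = 6.04e-05). The lower 10 included Ch25h at 3.49-fold (log2 fold change -1.80 ± 0.21, adjusted p = 1.69e-06), Msmo1 (-0.76 ± 0.09, adjusted p = 3.2e-06), Sqle (-0.46 ± 0.07, adjusted p = 5.48e-05) and Stard4 (-0.49 ± 0.09, adjusted p = 0.000405). At 2 h Ch25h differed most (-1.79 ± 0.16, adjusted p = 4.12e-08), followed in size by Srebf2 (-0.63 ± 0.18, adjusted p = 0.0208, kept in 3 of 6 fits without a library, with adjusted p up to 0.114) and Dhcr7 (0.48 ± 0.08, adjusted p = 0.000118).

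Whether the agents combined otherwise than by addition on the log2 scale was tested as an interaction (both − labelled LPA − labelled 1,25D + vehicle). At 2 h edgeR's quasi-likelihood test called 0 of the 32 genes, with 0.0365% of all genes called, 3 genes had an unadjusted p under 0.05, and DESeq2 called 0. At 8 h edgeR called 1 gene, with 7.68% of all genes called, 15 had an unadjusted p under 0.05, and DESeq2 called 7. The called gene was Ebp (0.44 ± 0.13, adjusted p = 0.049), whose CPM was 124, 144 and 118 in vehicle, 97.2, 87.1 and 95.2 labelled LPA, 132, 129 and 129 labelled 1,25D and 126, 142 and 116 with both agents. Only the libraries labelled LPA stood apart, below the other groups. The call for Ebp held in 3 of 12 fits without a library (adjusted p up to 0.182), and the count of called genes moved between 0 and 11: it was 8 without vehicle replicate 3, 9 without LPA replicate 1, 11 without replicate 3 of both agents, and 0 without each of the other 9 libraries.

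The change of a treatment effect between the times was tested directly as well. The effect labelled LPA differed between 8 h and 2 h at 11 of the 32 genes (2 higher, 9 lower), with 6.76% of all genes called. Cyp51 (-0.70 ± 0.10, adjusted p = 0.000223), Ebp (-0.64 ± 0.13, adjusted p = 0.00572), Insig1 (-0.47 ± 0.10, adjusted p = 0.00584), Ch25h (-1.53 ± 0.27, adjusted p = 0.00155) and Mylip (-0.52 ± 0.11, adjusted p = 0.0064) held in each of 12 fits without a library. The count was 5 without vehicle 2 h replicate 1 or 2, LPA 2 h replicate 2 or LPA 8 h replicate 2, 6 without LPA 2 h replicate 3, vehicle 8 h replicate 2 or LPA 8 h replicate 3, and 17 without vehicle 8 h replicate 3. The effect labelled 1,25D differed at 4 genes, with 4.17% of all genes called. Mvd (0.67 ± 0.12, adjusted p = 0.00155) went from -0.55 at 2 h to 0.12 at 8 h, Hsd17b7 (-0.56 ± 0.09, adjusted p = 0.000783) from 0.48 to -0.08 and Ch25h (-1.52 ± 0.24, adjusted p = 0.000457) from 1.68 to 0.17. These 3 held in each of 12 fits without a library, and the Dhcr7 change (0.42 ± 0.11, adjusted p = 0.0269) in 6 of 12 (adjusted p up to 0.122). The effect of both agents differed at 8 genes (3 higher, 5 lower), with 9.68% of all genes called. Ch25h changed most (-2.15 ± 0.25, adjusted p = 5.38e-06), Mvd (0.77 ± 0.12, adjusted p = 0.000162), Dhcr7 (0.51 ± 0.11, adjusted p = 0.00372) and Insig2 (0.63 ± 0.13, adjusted p = 0.00271) moved up, and Cyp51 (-0.54 ± 0.10, adjusted p = 0.00125) moved down, each in all 12 fits without a library.

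Other genes of sterol and fatty acid metabolism, 36 in 3 lists of which 35 were tested, gave a wider view. Against vehicle they were called at 1 gene labelled LPA at 2 h (higher), or 2.86% where 0.785% of all genes were called. At 2 h the calls were 5 labelled 1,25D (3 higher, 2 lower), or 14.3% against 13.9% of all genes, and 7 with both agents (2 higher, 5 lower), or 20% against 19.9%. At 8 h the counts were 5 labelled LPA (3 higher, 2 lower), or 14.3% against 12.0%, 11 labelled 1,25D (3 higher, 8 lower), or 31.4% against 16.2%, and 12 with both agents (3 higher, 9 lower), or 34.3% against 16.8%. The shares labelled LPA at 8 h and in the groups labelled 1,25D and both at 2 h were near those of all genes. Acsl4, which activates long-chain polyunsaturated fatty acids, was higher in 5 of these comparisons, most with both agents at 2 h (1.28 ± 0.07, adjusted p = 1.24e-11) and 8 h (1.10 ± 0.07, adjusted p = 1.29e-10). Fads2, the desaturase that opens polyunsaturated fatty acid synthesis, was lower at 8 h labelled 1,25D (-0.60 ± 0.06, adjusted p = 8.92e-07) and with both (-0.64 ± 0.06, adjusted p = 8.89e-08). Acss2, a cytosolic source of acetyl-CoA, was also lower at 8 h in these groups (-0.89 ± 0.09, adjusted p = 1.03e-06 and -0.60 ± 0.09, adjusted p = 5.01e-05). Mbtps1, the protease that makes the first cleavage of SREBPs, was lower there too (-0.39 ± 0.05, adjusted p = 2.93e-05 and -0.37 ± 0.05, adjusted p = 2.42e-05), while Tmem97, a sterol-regulated membrane protein, was higher (0.40 ± 0.09, adjusted p = 0.00462 and 0.43 ± 0.09, adjusted p = 0.00187). Smpdl3a, a liver X receptor target, was higher labelled LPA at 8 h (0.50 ± 0.12, adjusted p = 0.0099) and lower labelled 1,25D (-1.01 ± 0.13, adjusted p = 1.45e-05). In vehicle 6 of the 35 genes (17.1%, against 14.6% of all genes) were lower at 8 h than at 2 h and 0 higher, among them Aacs (-0.58 ± 0.07, adjusted p = 4.23e-06) and Mid1ip1 (-0.83 ± 0.10, adjusted p = 1.15e-05).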

How the data were processed

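RNA was extracted with a column kit, and libraries were made and sequenced for the DNBSEQ platform, per the labels' protocols. For each library the authors deposited a table of transcripts with an estimated count and a TPM value, per the file headers. The build was mm39, per the submitters' processing notes, and no source used here gives the aligner or counting settings. Of 139145 transcripts, 135078 matched a gene, carrying 99.45 to 99.60% of the estimated counts, and the rest (no gene name) were left out. The deposited estimated counts were summed per gene and rounded, and the deposited TPM values, which correct for transcript length, were summed per gene to compare levels between genes.

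Genes passing edgeR's filterByExpr (minimum count 10) were tested in 1 fit of all 24 libraries, so that the groups share 1 estimate of the spread, with edgeR 4.0.16 (TMM normalization, quasi-likelihood test, robust; 16 residual degrees of freedom, R 4.3.3), 18 contrasts and Benjamini-Hochberg adjustment over the 16424 genes tested. SE is the log2 fold change divided by the square root of F. On simulated data the fit recovered 98% of 2-fold and 33% of 1.41-fold changes among 200 changed genes, for LPA against vehicle at 2 h, with 3 false calls. The simulation gave every gene the same spread and no deviations shared within a library, unlike these data, so its rates need not hold here. In a chi-square test over genes, same-group libraries differed by 6.54 to 118 per degree of freedom, above sampling noise, and each was counted as 1 sample. Replicate numbers paired the libraries by their deviations in 1 of the comparisons (both agents against vehicle at 8 h). Levels by library are given for genes called in at least 2 comparisons with vehicle, plus Srebf1, Srebf2 and Abca1. They do not cover every comparison of these genes: for some calls only the log2 fold change is given. Levels of Hmgcs1, Ebp and Stard4 were given in addition. In the other lists, up to 3 genes each way with the smallest p per comparison could be named. The members and lists were chosen with earlier results of these data known. Alternatives were DESeq2 1.42.0, other scaling, no filter, length-scaled TPM, the compared groups alone, a replicate block and leaving out each library. Protein-coding transcripts only, mitochondrially encoded genes left out, and the fit without the 2 libraries of highest mitochondrial share were added after seeing the data. Promoters came from RefSeq. Some members of these pathways may not be reported here.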

Additional observations from a re-analysis of the deposited data

Results flagged for a closer look

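At 24 places the effect of a treatment on a gene differed between 2 h and 8 h, or between presence and absence of the other agent, by a test of the difference itself (edgeR's quasi-likelihood test, Benjamini-Hochberg adjustment over all genes tested). Values are differences of log2 fold changes, 8 h minus 2 h, except for the interaction, which was taken within 8 h. The single agents carry the reservation on their labels.

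The effect labelled LPA was more negative at 8 h for Idi1 (-0.54), Cyp51 (-0.70), Msmo1 (-0.51), Ebp (-0.64), Sc5d (-0.43), Insig1 (-0.47), Stard4 (-0.48), Ch25h (-1.53) and Mylip (-0.52). It was more positive for Hsd17b7 (0.34) and Insig2 (0.47). Cyp51, Ebp, Insig1, Ch25h and Mylip held in each of the 12 fits without a library. The others held in 5 of 12 (Idi1), 5 of 12 (Msmo1), 4 of 12 (Sc5d), 5 of 12 (Stard4), 3 of 12 (Hsd17b7) and 2 of 12 (Insig2), and their highest adjusted p lay between 0.0805 and 0.125.

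The effect labelled 1,25D changed for Mvd (0.67), Dhcr7 (0.42), Hsd17b7 (-0.56) and Ch25h (-1.52), and Dhcr7 held in 6 of 12 fits without a library. The effect of both agents changed for Mvd (0.77), Dhcr7 (0.51), Insig2 (0.63), Idi1 (-0.57), Cyp51 (-0.54), Insig1 (-0.35), Ch25h (-2.15) and Mylip (-0.36). Of these Idi1 held in 10 of 12, Insig1 in 6 of 12 and Mylip in 4 of 12 fits, with adjusted p up to 0.0539, 0.0901 and 0.119. The interaction of the agents at 8 h was 0.44 for Ebp, in 3 of 12 fits (adjusted p up to 0.182).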

How the results depend on the processing

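Counts below are members called. Fitted on the compared groups alone, which leaves fewer libraries to estimate the spread, the count was 1 for labelled LPA against vehicle at 2 h (2 in the report), 2 for both agents against labelled 1,25D at 2 h (4) and 14 for labelled LPA against labelled 1,25D at 2 h (7). At 8 h it was 6 for labelled LPA (17), 4 for labelled 1,25D (8) and 5 for both agents (13) against vehicle, 6 for both agents against labelled LPA (13) and 0 for the interaction (1). It was 8 for vehicle over time (17), and 5 for the effect over time labelled LPA (11) and 5 for that of both agents (8). Without the filter on low counts, both agents against labelled 1,25D at 2 h gave 2 and the interaction at 8 h gave 6. With protein-coding transcripts only these gave 2 and 0. Without the 2 libraries of highest mitochondrial share the count was 9 labelled LPA at 8 h, 4 labelled 1,25D at 8 h, 5 for the effect over time labelled LPA and 0 for the interaction at 8 h. From length-scaled TPM it was 8 for both agents against vehicle at 8 h, 7 for the effect over time labelled LPA and 0 for the interaction at 8 h. DESeq2 called 7 for the interaction at 8 h, and leaving out mitochondrially encoded genes called 0. The cause of these differences was not tested. From length-scaled TPM the effect over time labelled LPA was reversed for Hsd17b7, at -0.13 (adjusted p = 0.505).

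Leaving out 1 library, the counts against vehicle ranged from 1 to 2 labelled LPA, 8 to 9 labelled 1,25D and 15 to 16 with both agents at 2 h, and from 10 to 21, 4 to 12 and 10 to 13 at 8 h. Both agents against labelled LPA ranged from 9 to 12 at 2 h and 8 to 15 at 8 h, both against labelled 1,25D from 1 to 4 and 7 to 9, and labelled LPA against labelled 1,25D from 6 to 8 and 14 to 15. The interaction ranged from 0 to 0 at 2 h and 0 to 11 at 8 h, vehicle over time from 12 to 16, and the effects over time from 5 to 17 labelled LPA, 3 to 4 labelled 1,25D and 6 to 9 with both agents.

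Of 308 values of single members and of counts per setting, DESeq2 kept 299 on their side of the threshold and in direction, another scaling (median of ratios) 307, length-scaled TPM 270, the compared groups alone 253, no filter 272, protein-coding transcripts 294, mitochondrially encoded genes left out 302, and the 2 libraries of highest mitochondrial share left out 273. Of the values recomputed without a library, 1760 were kept, 19 gained a call and 213 lost theirs.

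The groups share replicate numbers, but no label says that a number marks a shared culture or day. Deviations of same-numbered libraries correlated between -0.69 and 0.78 over 84 pairs, 27 of them over 0.1, and 10 of 24 libraries correlated best with their own number, so the numbers were not taken to pair the libraries as a whole. Of the groups compared directly, vehicle and both agents at 8 h were the exception, with 0.265, 0.778 and 0.722 for their 3 same-numbered pairs, and there the block took away the call for Dhcr7 (adjusted p = 0.0665) and no other. With the number as a replicate block, 302 of 308 values were kept and the members called were 2, 9 and 15 against vehicle at 2 h (labelled LPA, labelled 1,25D, both), 16, 7 and 12 at 8 h, 17 for vehicle over time and 0 for the interaction at 8 h.

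Counts over all genes tested moved as well. On the compared groups alone, labelled LPA at 8 h gave 565 (1971 in the fit of all libraries), labelled 1,25D 1287 (2662), both agents 988 (2758), both against labelled LPA 1263 (3765), both against labelled 1,25D 807 (1507), the interactions 1 at 2 h (6) and 13 at 8 h (1262), vehicle over time 413 (2393), and the effects over time labelled LPA 443 (1110) and of both agents 743 (1590). Without the filter, labelled LPA gave 373 at 2 h (129) and 3006 at 8 h, both against labelled 1,25D 258 at 2 h (126) and 2386 at 8 h, the interactions 88 and 3094, and the effects over time 3065 labelled LPA and 1046 labelled 1,25D (685). DESeq2 gave 328 labelled LPA at 2 h, 218 for both against labelled 1,25D at 2 h, 3546 for the interaction at 8 h and 2366 for the effect over time labelled LPA. Length-scaled TPM gave 440 for that interaction and 726, 373 and 980 for the effects over time (labelled LPA, labelled 1,25D, both). Without the 2 libraries of highest mitochondrial share, labelled LPA gave 200 at 2 h and 857 at 8 h, labelled 1,25D 1499 at 8 h, the interaction at 8 h 25, vehicle over time 1524 and the effect over time labelled LPA 316. Protein-coding transcripts gave 3 for the interaction at 2 h, and leaving out mitochondrially encoded genes 819 at 8 h.

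Depth was close to even, and it limits Ch25h and Abcg1, whose counts were lowest. The 3 libraries per group and their spread limit Srebf1, Srebf2, Scap and Fasn, for which the SE of a log2 fold change was 0.18 to 0.24.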
